A study of Mus musculus with 6 samples.

Results

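Fanconi anaemia genes encode the proteins of a DNA repair pathway. The set described here holds the 10 genes Fanca, Fancb, Fancc, Fancd2, Fance, Fancf, Fancg, Fanci, Fancl and Fancm, taken by gene name from the 32285 genes of the count table. All 10 were found once each, and all 10 were among the 15104 genes with enough counts to be tested. RNA came from germline stem (GS) cells, which are cultured mouse spermatogonia with stem cell activity, on the day after thawing and without passage. The cells were derived from testes of DBA/2 pups aged 2 to 3 days, carried the transgene Tg14(act-EGFP-OsbY01) in both groups, and were grown with GDNF and FGF2 on mouse embryonic fibroblasts as a feeder layer. Space GS cells were kept frozen for 6 months on the International Space Station and Ground GS cells for 6 months on Earth, with 3 libraries in each group. The labels call the replicates biological, and the study speaks of lines, but which libraries share a line is not given, so p-values measure the spread between these libraries only. Groups follow the titles of the libraries, and the column names of the count table match the titles. The treatment tag of all 6 libraries states the opposite group, so each direction given here would turn around if the tag were right.

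The Fanconi anaemia pathway repairs DNA interstrand crosslinks, lesions that join both strands and block replication forks. A core complex recognises the stalled fork and acts as a ubiquitin ligase. It attaches ubiquitin to the FANCD2-FANCI pair, which then recruits nucleases and the homologous recombination machinery. Mice that lack genes of this pathway lose germ cells and have small gonads, and primordial germ cells are among the cells most affected. The study asked about DNA damage and repair in GS cells after spaceflight, and the comparison here is that of Space with Ground for these genes.

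No Fanconi anaemia gene passed the test for a difference between Space and Ground GS cells. With edgeR's quasi-likelihood test 0 of the 10 genes passed an adjusted p of 0.05, beside 0% of all genes tested, and the adjusted p was 0.9999 for each of the 10. The smallest unadjusted p of the 10 was 0.195, for Fancl (edgeR). At an unadjusted p under 0.05 there were 0 of the 10 genes with edgeR, DESeq2 or limma-voom, against 92, 45 and 88 of the 15104 genes tested. These counts lie far below the share of 0.05 that p-values of independent libraries give where no gene differs. The median log2 fold change was -0.019 over the 10 genes and -0.0020 over all genes tested, with 3 genes higher and 7 lower in Space. In 0 of the 10 genes did the libraries of one group all lie above those of the other. Such a split was found in 3.59% of all genes tested, so its absence does not set the 10 genes apart. Summed over the 10 genes, the level was 472.2 ± 29.99 CPM (the count of a gene scaled to libraries of equal size with the TMM factors of edgeR) in Ground and 471.1 ± 22.7 in Space (SD, n = 3).

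**Figure D1:**
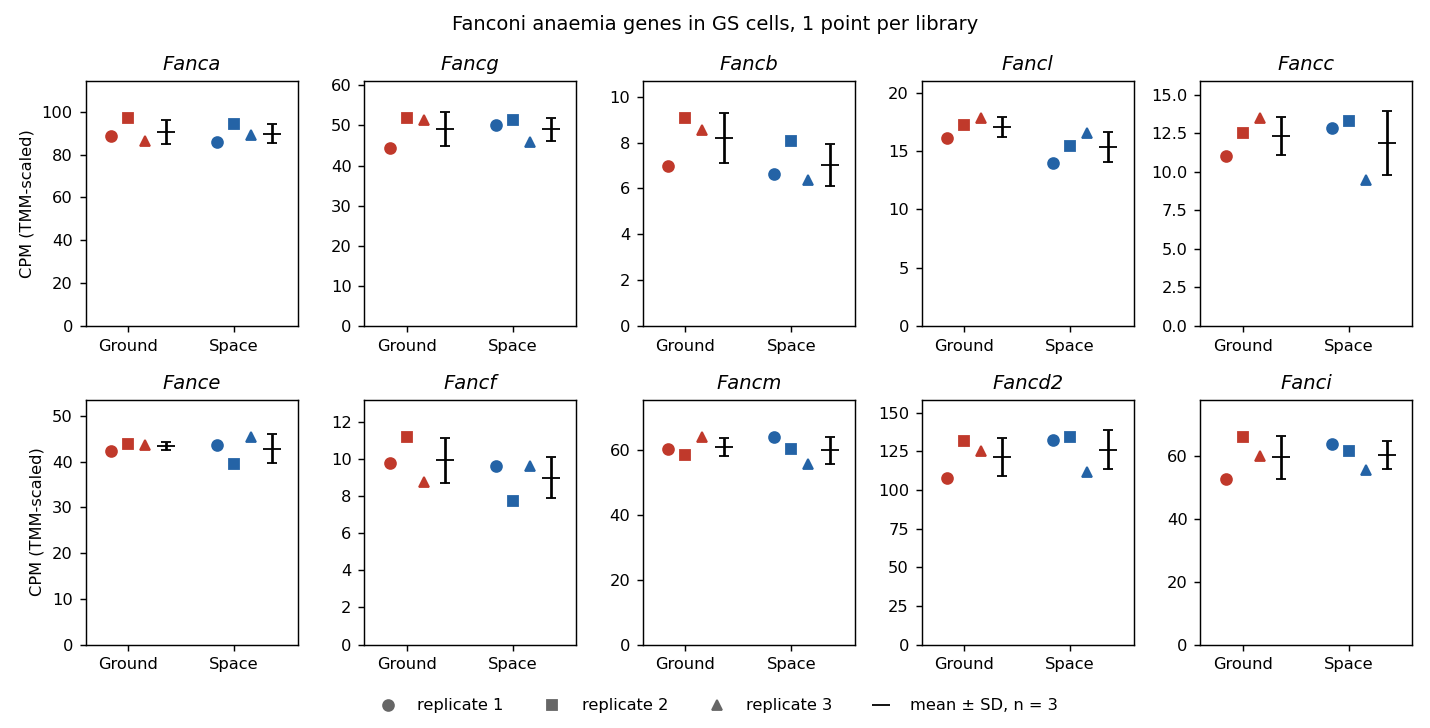
Level of each Fanconi anaemia gene in CPM (vertical axis, from 0) in the 3 Ground and 3 Space libraries, with 1 point per library and the mean ± SD beside each group. The points of both groups overlap in all 10 panels.

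Totals lay between 19015985 and 24110916 counts, and 19528 to 20316 genes had at least 1 count. Counts of the 10 genes ran from 145 (Fancf, Space-2) to 3215 (Fancd2, Space-1) in a library. Mitochondrial transcripts took 2.51% to 11.5% of the counts, with the highest shares in Ground-2 and Space-2. Spermatogonial markers such as Ddx4, Dazl and Zbtb16 were present in every library, and the 15 listed markers summed to between 3996 and 4092 CPM. Single markers were less even than this sum. The highest library exceeded the lowest by 1.04-fold in Dnd1 but by 2.81-fold in Etv5. Etv5 had 258.8 CPM in Ground-1 and 261.8 in Space-3, against 93.0 in Ground-3 and 99.1 in Space-1. The 25 listed markers of fibroblasts summed to 1124 to 1159 CPM in Ground and 902.3 to 1168 CPM in Space, with Space-1 lowest, and 24 of them had a log2 fold change below 0 (median -0.29), as had 7743 of the 15104 genes tested. None of the 25 passed edgeR's adjusted threshold. In edgeR 4 of the 25 had an unadjusted p under 0.05, against 92 of the 15104 genes tested. The groups did not overlap in 2, both lower in Space, against 3.59% of all genes tested. Of listed macrophage, Sertoli cell and Leydig cell markers, 2 of 6, 4 of 5 and 1 of 5 had enough counts to be tested, and their summed levels were at most 22.5, 27.8 and 5.04 CPM, with Fshr of Sertoli cells and Hsd3b1 of Leydig cells at 0 counts in every library. The part of these markers in the levels of Fanconi anaemia genes was not tested. In bulk RNA, fewer cells of a type and less RNA per cell cannot be told apart. The closest pairs of libraries lay across the groups. The median chi-square of a library pair, relative to sampling noise, was 1.55 to 2.63 for Ground-1 with Space-3, Ground-3 with Space-1 and Ground-2 with Space-2. It was 5.0 to 10.4 for the other pairs, so no library was a copy of another. The standard errors take no account of these resemblances across groups, and the spread within each group includes the differences between these pairs. Where the libraries of such a pair share a source, this makes standard errors and p-values too large and intervals too wide. Whether they do is not given. A gene that did not pass the test was therefore not shown to be equal in both groups.

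FANCA and FANCG bind each other directly within the core complex. Fanca (ENSMUSG00000032815, chromosome 8, 123268300 to 123318576, minus strand of GRCm38) had 88.4, 96.9 and 86.4 CPM in the Ground libraries, in the order of their numbers. In the Space libraries it had 85.7, 94.4 and 89.0 CPM. The highest values of both groups were those of the libraries numbered 2, and the groups overlapped. The log2 fold change was -0.014 (SE 0.068, edgeR adjusted p = 0.9999), and its 95% interval ran from 0.888-fold to 1.10-fold. Fancg (ENSMUSG00000028453, chromosome 4, 43002343 to 43010506, minus strand) had 44.3, 51.8 and 51.2 CPM in Ground and 50.2, 51.3 and 45.8 CPM in Space. Ground-1 and Space-3 were low, and the other 4 libraries lay close together. The log2 fold change was 0.00049 (SE 0.087), the value nearest 0 among the 10 genes.

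FANCL is the ubiquitin ligase subunit itself, and FANCB holds it in a catalytic module. Fancl (ENSMUSG00000004018, chromosome 11, 26386135 to 26471876, plus strand) had 16.1, 17.2 and 17.8 CPM in Ground and 14.0, 15.5 and 16.6 CPM in Space. Space-1 was lowest, and Space-3 lay above Ground-1. Its log2 fold change was -0.15 (SE 0.11, edgeR adjusted p = 0.9999), with an interval of 0.756-fold to 1.07-fold. Fancb (ENSMUSG00000047757, chromosome X, 164980592 to 164997272, plus strand), the X-linked member, had 6.96, 9.05 and 8.55 CPM in Ground and 6.63, 8.05 and 6.36 CPM in Space. Its means of 8.19 ± 1.09 and 7.01 ± 0.906 CPM (SD, n = 3) lay farthest apart in relative terms, yet Ground-1 lay below Space-2. For Fancb the log2 fold change was -0.22 (SE 0.17, edgeR adjusted p = 0.9999). Faap100, the further subunit of this module and named here after its value was seen, had 43.9 ± 6.70 CPM in Ground and 45.6 ± 5.29 in Space, a log2 fold change of 0.054 (SE 0.13). None of these 3 genes passed the test, although for Fancl and Fancb the means lay farther apart than 1 SD of either group.

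FANCC, FANCE and FANCF form the substrate module, through which FANCE contacts FANCD2. Fancc (ENSMUSG00000021461, chromosome 13, 63285043 to 63497278, minus strand) had 11.03, 12.5 and 13.5 CPM in Ground and 12.8, 13.3 and 9.48 CPM in Space. Space-3 was the lowest library and Ground-3 the highest, and the groups differed by a log2 fold change of -0.058 (SE 0.16). Fance (ENSMUSG00000007570, chromosome 17, 28313519 to 28326572, plus strand) had 42.4, 43.9 and 43.7 CPM in Ground and 43.7, 39.4 and 45.4 CPM in Space. The Ground values were close together (SD 0.848), and Space held both the highest and the lowest library. Its log2 fold change was -0.016 (SE 0.077). Fancf (ENSMUSG00000092118, chromosome 7, 51860577 to 51862267, minus strand), a gene with 1 exon, had 9.80, 11.2 and 8.77 CPM in Ground and 9.64, 7.73 and 9.60 CPM in Space. The libraries numbered 2 were at opposite ends, highest in Ground and lowest in Space. The log2 fold change was -0.14 (SE 0.15, edgeR adjusted p = 0.9999).

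FANCM is a DNA translocase that anchors the core complex to chromatin. Fancm (ENSMUSG00000055884, chromosome 12, 65075603 to 65132058, plus strand) had 60.4, 58.4 and 64.1 CPM in Ground and 64.1, 60.3 and 55.8 CPM in Space. Ground-3 and Space-1 were highest and nearly equal. The log2 fold change was -0.023 (SE 0.074, edgeR adjusted p = 0.9999), with an interval of 0.873-fold to 1.11-fold.

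FANCD2 and FANCI are the paired substrates of the core complex. Fancd2 (ENSMUSG00000034023, chromosome 6, 113531682 to 113597017, plus strand) had 107.5, 131.4 and 125.2 CPM in Ground and 132.4, 134.3 and 111.6 CPM in Space. Fanci (ENSMUSG00000039187, chromosome 7, 79391929 to 79450264, plus strand) had 52.5, 65.9 and 59.9 CPM in Ground and 63.6, 61.5 and 55.3 CPM in Space. For both genes Ground-1 was lowest and Space-3 next, and the groups overlapped. The log2 fold changes were 0.055 for Fancd2 (SE 0.099) and 0.018 for Fanci (SE 0.098), both with an edgeR adjusted p of 0.9999. The Fancd2 CPM was 1.99 to 2.18 times that of Fanci in every library (mean 2.07 ± 0.066, SD, n = 6). This ratio of counts is not corrected for gene length. Ratios of other gene pairs were not computed, so a steadiness particular to this pair is not shown.

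The precision of the comparison differed between genes. All 10 intervals held 1-fold. An increase of 1.5-fold in Space lay outside the 95% interval in all 10 genes, and a decrease of 1.5-fold lay inside the interval of 1 gene, Fancb (0.653-fold to 1.12-fold). Single libraries moved this count: without Ground-3, Space-1 or Space-3 the interval of Fancf also reached such a decrease, as did that of Fancc without Space-2. Fancb had the fewest counts of the 10, with 1005 over all libraries, and Fancd2 the most, with 16460. The change was smaller than its standard error in 8 of the 10 genes, the exceptions being Fancb and Fancl.

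**Figure D2:**
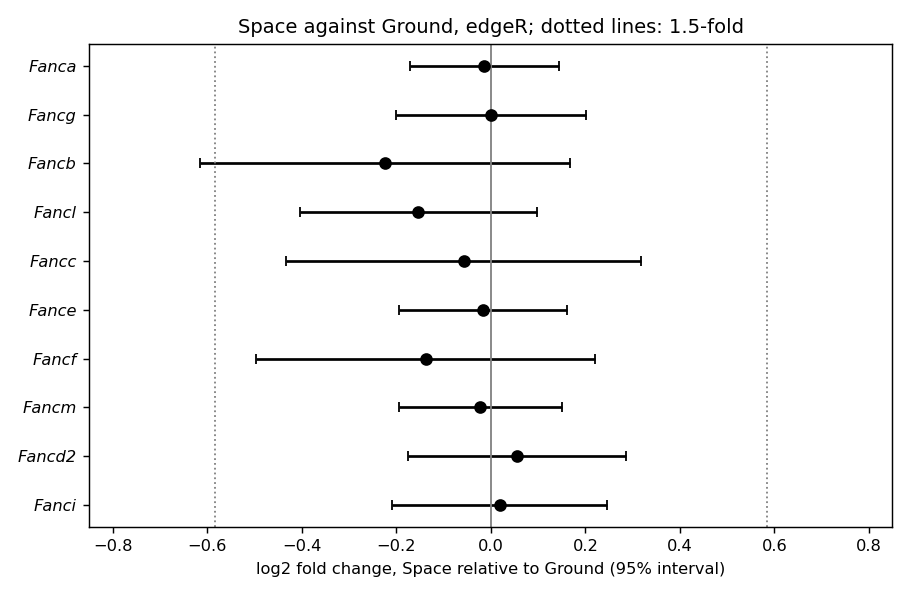
Log2 fold change of each gene in Space relative to Ground (horizontal axis) with its 95% interval from edgeR, with dotted lines at 1.5-fold. All 10 intervals cross 0, and that of Fancb, from -0.61 to 0.17, is the only interval to reach a dotted line.

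In each of the 10 genes the coefficient of variation over the 6 libraries was above that of counting alone, which was not tested. It ran from 4.76% (Fance, with 3.22% from counting) to 14.5% (Fancb), where counting alone would give 1.91% (Fancd2) to 7.73% (Fancb). The highest library exceeded the lowest by 1.13-fold in Fanca and by 1.45-fold in Fancf. This variation did not follow the groups. Relative to the mean of each gene, 9 of the 10 genes were above it in Ground-2 and 8 in Ground-3, but 2 in Ground-1. Among the Space libraries, Space-1 held 7 such genes, Space-2 held 6 and Space-3 held 3. The same shares over all genes are not given here, so a pattern particular to the 10 genes is not shown.

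**Figure D3:**
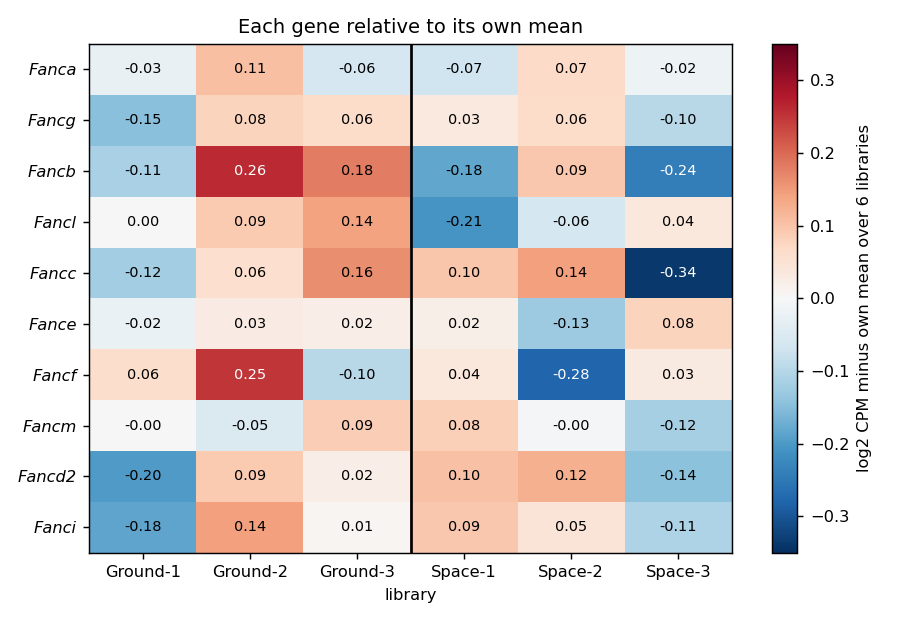
Log2 CPM of each gene (rows) minus its own mean over the 6 libraries (columns; the line parts Ground from Space), with red above and blue below the mean. Fancd2, Fanci, Fancg and Fancc have their lowest values in Ground-1 and Space-3.

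Ground-1 and Space-3 were the lowest libraries in 4 genes, Fancc, Fancd2, Fancg and Fanci. This pattern was described after the values were seen and was not tested. The same libraries were lowest in 19.7% of all genes tested. They were also lowest in 17 of the 37 partner genes described below. The same held for 16 of 22 genes of a proliferation list that includes Top2a, Mcm2 to Mcm7 and Pcna. In Mcm4 and Mcm5 the lowest libraries were instead Ground-3 and Space-1. The summed level of the proliferation list was 5186 CPM in Ground-1 and 5174 CPM in Space-3, against 5909 to 6111 CPM in the other 4 libraries. Mki67, the Ki-67 proliferation antigen, had 440.7, 522.8 and 503.5 CPM in Ground and 480.6, 493.8 and 418.8 CPM in Space. Between the groups, 0 of the 22 genes passed edgeR's adjusted threshold, and their median log2 fold change was -0.0088. The part of proliferation in the level of Fanconi anaemia genes was not tested.

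Across all 6 libraries, the mean log2 CPM of the 10 genes was most like the levels of Ndufv1, Mtch2 and Timm9, with Pearson's r of 0.992, 0.991 and 0.989. Ndufv1 encodes a subunit of respiratory complex I, Mtch2 a protein of the outer mitochondrial membrane and Timm9 a chaperone of mitochondrial import. These values describe 6 libraries, some of which resemble each other closely, and r was above 0.9 in 259 of 15094 genes.

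Levels can be compared between genes only per length. Divided by the length of all annotated exons of the gene (GENCODE M21), Fancd2 had the highest level, with 15.6 ± 1.44 CPM per kilobase, followed by Fance with 13.5 ± 0.643 and Fancg with 12.9 ± 0.847 (SD over 6 libraries). Fanci with 10.4 ± 0.879 and Fanca with 10.3 ± 0.514 came next. The lower levels were those of Fancm with 5.80 ± 0.311, Fancf with 5.59 ± 0.680 and Fancl with 4.8 ± 0.404 CPM per kilobase. Fancb with 2.55 ± 0.370 and Fancc with 1.45 ± 0.185 were lowest, 10.8-fold below Fancd2 in the case of Fancc. Neighbours in this order had overlapping ranges over the libraries, except Fancg and Fanci, Fanca and Fancm, Fancl and Fancb, and Fancb and Fancc. Among all genes tested, Fancd2 had a percentile of 74.8 and Fancc a percentile of 28.3 in CPM per kilobase.

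The order depended on the length used. With the longest transcript of each gene as length, Fanca rose to the second place with 20.1 ± 1.003 CPM per kilobase, behind Fancd2 with 22.4 ± 2.08. Fancc had 3.82 ± 0.488 and Fancb 2.55 ± 0.371, so that Fancb was then lowest. The exons of Fanca spanned 8761 bases in all and 4485 in the longest transcript, and those of Fancc 8359 and 3165 bases. Under both lengths the catalytic module genes Fancb and Fancl stood below Fanca, Fancg, Fance and both substrate genes. So did Fancc, Fancf and Fancm, so a low level was not particular to that module.

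**Figure D4:**
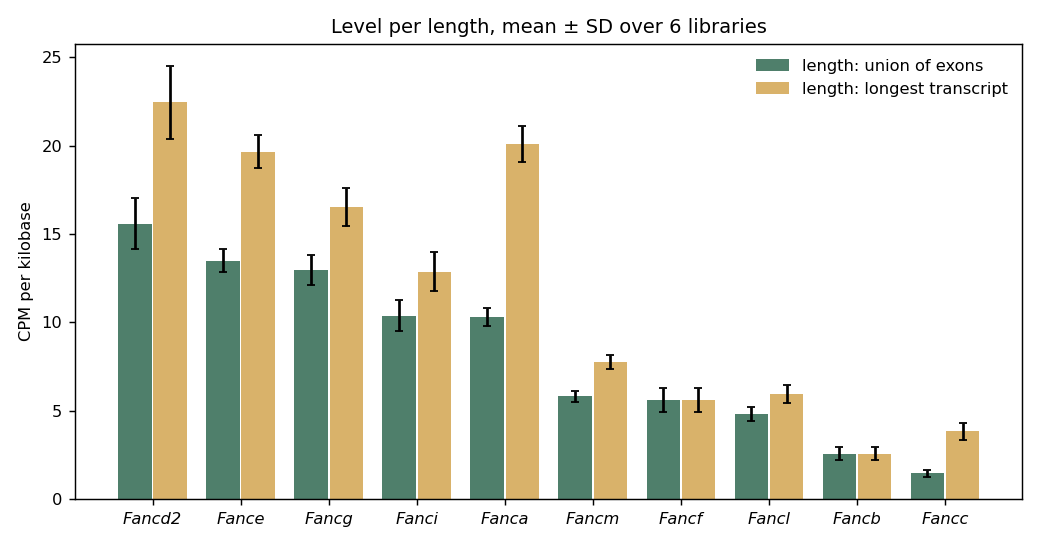
Level of each gene in CPM per kilobase (vertical axis, from 0) as mean ± SD over 6 libraries, with the union of exons or the longest transcript as length. Fancd2 is highest under both lengths, and Fancc and Fancb are the lowest genes.

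Several members overlap exons of genes on the opposite strand. Whether the counting used strand is not given in the sources used here, so reads of such stretches may not be told apart. Polg covers 921 exon bases of Fanci (15.95%) and was expressed at 176.7 CPM, above Fanci itself. Zfp276 covers 10.5% of Fanca exons at 18.7 CPM, Gas2 15.0% of Fancf at 12.2 CPM, and Vrk2 13.7% of Fancl at 2.5 CPM. The log2 fold changes of these 4 genes lay between -0.067 (Gas2) and 0.056 (Vrk2). Fancd2 shares 3.24% of its exon bases with Fancd2os, which had 0.277 CPM. Further overlaps are 2.21% of Fancc with 2010111I01Rik at 26.9 CPM, 16.4% of Fancc with Gm16133 at 0.0966 CPM, and 3.26% of Fance with CT025652.1 at 0 CPM. Fancm shares 5.51% of its exon bases with Gm47870 and 1.56% with Gm47869, which have no row in the count table. No such overlap was annotated for Fancb or Fancg.

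The pathway also needs partners outside the 10 genes. A list of 37 genes held further genes of the pathway, the associated proteins of the core complex and the ubiquitin-conjugating enzyme Ube2t. It also held the deubiquitinase Usp1 with its cofactor Wdr48, nucleases, helicases and translesion polymerases. Atr, Chek1, Rpa1, Hes1 and Uhrf1, which belong to none of these kinds, were listed as partners too. All 37 were tested, and 0 passed edgeR's adjusted threshold in either direction, as did 0 of all genes tested. At an unadjusted p under 0.05 in edgeR there were 0 of the 37, against 92 of the 15104 genes tested. The median log2 fold change of the 37 was -0.011, with 13 higher and 24 lower in Space. The groups overlapped in all 37. They did not overlap in 3.59% of all genes tested, a share too low for this to set the 37 apart. The highest values were those of Mad2l2 (0.10, SE 0.15), a subunit of the translesion polymerase zeta, Ercc4 (0.10, SE 0.20), a nuclease subunit, and Slx1b (0.059, SE 0.22), a nuclease that works with Slx4. The lowest were those of the polymerase gene Poln (-0.15, SE 0.22), Faap20 (-0.11, SE 0.097), whose product binds FANCA, and Rmi2 (-0.092, SE 0.15), a member of the BLM helicase complex. Uhrf1 had the highest CPM of the list, 695.9, and Poln the lowest, 2.75.

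Genes of the ubiquitin step outside the 10 members were named here after their values were seen. Ube2t had 45.4 ± 3.63 CPM in Ground and 45.8 ± 1.34 in Space. Usp1 had 133.7 ± 9.24 and 132.9 ± 10.5 CPM, and Wdr48 had 204.2 ± 6.55 and 209.5 ± 6.31 (SD, n = 3). Neither the conjugating nor the deubiquitinating genes differed beyond the spread between replicates (edgeR adjusted p = 0.9999 for all 3).

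Promoter sequences were available in RefSeq (GRCm38.p6) for 9 members, all but Fancd2. Each window held 250 bases before and 50 bases after the start that RefSeq gives. That start was the outermost GENCODE start in 4 genes, among them Fanca and Fancf. In the other 5 it lay inside the gene as positioned above, by 11 bases in Fance, 205 in Fancg, 409 in Fanci, 949 in Fancl and 65533 in Fancc, so that most of the Fancg stretch printed here, its motif included, lies within the GENCODE span. CCAAT, the box bound by NF-Y, was found on either strand in 6 of the 9 windows (Fanca, Fancb, Fancc, Fance, Fancf and Fancm) and in 37.4% of all 32841 windows. An E2F motif, searched as TTTCCCGC, TTTGGCGC, TTTCGCGC or TTTGCCGC on either strand, was found in 1 of the 9, Fancg, and in 2.27% of all windows. The cell cycle element TTTGAA was found in 0 of the 9 and in 17.9% of all windows. None of these matches overlapped another. A match describes letters only. The 250 bases before the start are printed for the genes with repeated CCAAT boxes, Fancf at 118, 72 and 31 bases and Fanca at 50 and 23 bases before the start, and for Fancg with the E2F motif at 52 bases. Capitals mark the motif, and each sequence runs 5′ to 3′ on the strand of the gene, which is the minus strand for all 3.

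Fancf, chr7:51862268-51862517: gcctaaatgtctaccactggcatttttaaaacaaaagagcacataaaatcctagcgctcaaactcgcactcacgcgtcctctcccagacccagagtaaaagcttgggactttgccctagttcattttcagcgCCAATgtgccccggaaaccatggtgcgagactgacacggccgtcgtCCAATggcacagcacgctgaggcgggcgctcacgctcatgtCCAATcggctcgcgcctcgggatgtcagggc

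Fanca, chr8:123318577-123318826: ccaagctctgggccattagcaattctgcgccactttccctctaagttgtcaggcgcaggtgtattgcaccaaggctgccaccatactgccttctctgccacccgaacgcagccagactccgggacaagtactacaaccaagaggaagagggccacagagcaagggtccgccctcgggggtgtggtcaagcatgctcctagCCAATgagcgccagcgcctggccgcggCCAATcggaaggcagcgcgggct

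Fancg, chr4:43010302-43010551: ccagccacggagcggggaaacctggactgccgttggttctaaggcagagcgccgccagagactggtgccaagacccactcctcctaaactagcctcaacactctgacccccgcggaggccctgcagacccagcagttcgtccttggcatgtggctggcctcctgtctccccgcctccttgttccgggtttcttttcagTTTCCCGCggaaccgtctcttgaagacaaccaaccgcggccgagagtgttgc

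Fancf, Fanca and Fancg were highest in Ground-2, and their lowest values were in Space-2, Space-1 and Ground-1. Fancb, with a CCAAT box, and Fanci, with none of the motifs, were also highest in Ground-2. Fancc, Fance and Fancm, each with a CCAAT box, were highest in Ground-3, Space-3 and Ground-3. A link of motifs to levels was not tested, and the share of all genes highest in Ground-2 is not given here.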

How the data were processed

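The members and lists were chosen with earlier results of these data known. The authors deposited raw counts per gene, 1 column per library. Per the study's methods, adapters were removed by cutadapt, and HISAT2 placed the reads on mm10 with GENCODE M21; the submitters' processing notes also name HTSeq 2.0.2, without settings. For library kit, sequencer and read layout, the labels and the methods disagree. Nothing was pooled. Libraries were grouped by title. Genes with low counts were removed with filterByExpr, leaving 15104, and counts were tested across all genes with edgeR 4.0.16 in R 4.3.3 (trimmed mean of M-values, TMM; 2-sided quasi-likelihood F test, no replicate block, Benjamini-Hochberg threshold 0.05). The standard error is the fold change divided by the root of F, with intervals at 95%. Log2 CPM used a prior count of 2. Counting alone gives a coefficient of variation of 1 over the root of the mean count. The procedure was tested on simulated counts of independent libraries, which lack the resemblances across groups described above. Other settings tried were DESeq2 1.42.0, limma-voom (limma 3.58.1), scaling by RLE or by total counts, no filter or at least 10 counts per library, a replicate block, and each library left out in turn. Partner genes named are the 3 highest and 3 lowest by fold change and the highest and lowest by CPM; genes most like the members are the 3 with the highest r. Positions count from 1; promoter positions come from RefSeq and the others from GENCODE M21, which held 32235 of the identifiers.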

Additional observations from a re-analysis of the deposited data

How the results depend on the processing

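In 15 alternatives, 0 of the 10 genes, 0 of the 37 partner genes and 0 of all genes tested passed the threshold, with an adjusted p of at least 0.9997 for the 10 genes (edgeR, DESeq2 or limma-voom). Over these alternatives, 130 of 150 fold changes of the 10 genes kept their direction, and Fancb and Fancl were lower in Space in all of them. Changes near 0 reversed with total counts, which moved the median of all genes to 0.033 and that of the 10 genes to 0.016: Fanca 0.023, Fance 0.021 and Fancm 0.011. Fancg was -0.00026 with at least 10 counts in every library. Without a library, log2 fold changes ran from -0.051 to 0.037 for Fanca (0.037 without Ground-2), -0.14 to 0.083 for Fancc (0.083 without Space-3), -0.025 to 0.14 for Fancd2 (-0.025 without Ground-1), -0.060 to 0.040 for Fance (0.040 without Space-2), -0.069 to 0.048 for Fancg, -0.064 to 0.099 for Fanci (both lowest without Ground-1) and -0.073 to 0.029 for Fancm (0.029 without Space-3). Those of Fancb ran from -0.33 (without Ground-1 or Space-2) to -0.15 (without Ground-2), of Fancl from -0.21 (without Space-3) to -0.090 (without Space-1), and of Fancf from -0.21 (without Ground-3) to -0.042 (without Space-2; -0.045 without Ground-2). The median of the 10 genes ran from -0.067 to 0.010 in these fits. Groups that did not overlap numbered 0 to 2 genes without a library, with Fancb and Fancl without Ground-1 (12.7% of all genes), Fancf without Ground-3 (11.7%), Fancb without Space-2 (9.30%), and Fancd2 and Fancl without Space-3 (10.6%); fewer libraries make such a split more frequent. In alternatives chosen after seeing the data, leaving out mitochondrial genes reversed none of the 10, and leaving out Ground-2 and Space-2 reversed Fanca (0.0021), Fance (0.053) and Fancf (0.054) and gave 2 genes without overlap, Fancb and Fance (14.9% of all genes). With the longest transcript as length, CPM per kilobase was 20.1 for Fanca, 3.82 for Fancc, 22.4 for Fancd2, 19.6 for Fance, 16.5 for Fancg, 12.9 for Fanci, 5.94 for Fancl and 7.74 for Fancm.

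Replicate numbers did not pair the libraries. Deviations from the group means correlated at -0.48, 0.28 and -0.60 in same-numbered libraries, and 2 of 6 libraries correlated best with their own number. With the replicate number as replicate block 0 genes passed, 63 had an unadjusted p under 0.05, 0 of the 10 genes passed, and their median log2 fold change was -0.021. The interval reached a 1.5-fold decrease for 2 genes, Fancb and Fancf, with the block, for 2 without Ground-2 and Space-2 (Fancb and Fancc), and for 0 with total counts.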
